A study of Homo sapiens with 24 samples.

Results

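The kinase mTOR and the proteins that assemble it, switch it and report nutrients to it were followed here as 47 genes, taken by symbol from the 39786 genes of a count table of 2 human cancer cell lines. The list follows the known parts of the pathway, was drawn up with earlier results of these data known, and all 47 genes were found. The cells were 5637, an established line from a bladder carcinoma, and OVCAR8, an established line from an ovarian carcinoma. From each line there were parental cells and a derivative resistant to neratinib (NR), and both were grown as controls or given neratinib, an irreversible inhibitor of the kinases of the EGFR family, for 24 h. The dose was 600 nM in 5637 and 1 µM in OVCAR8, so that line and dose cannot be told apart. Both NR derivatives were held without drug for 1 week before seeding, and their control libraries therefore describe resistant cells off the drug. How the NR cells were selected, and whether they are single clones, is not given in the sources used here. Each of the 8 groups had 3 libraries from dishes seeded in parallel, so the p-values measure the spread between these dishes, which may be technical.

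As background, mTOR works in a pair of complexes. mTORC1, built on RPTOR, promotes protein synthesis by phosphorylating the S6 kinases and the 4E-BP proteins, while mTORC2, built on RICTOR, phosphorylates AKT and SGK kinases. Growth factor signals reach mTORC1 by inhibiting the TSC complex, which otherwise holds the small GTPase RHEB in its inactive state. Amino acids act through the Rag GTPases, which bring mTORC1 to the lysosome and are governed there by the Ragulator scaffold, by folliculin and by the GATOR complexes. Stress adds brakes, among them DDIT4 (also called REDD1), which acts through TSC, and the sestrins, which act through GATOR. RNA levels of these genes were measured here; the activity of the complexes was not.

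Promoter sequences of 5 members are shown first, because these genes rose with neratinib in parental cells of at least 1 line, and 3 of them carry a sequence word that was searched for. Each is the stretch of 250 bases before the gene start, 5′ to 3′ on the gene's strand, from RefSeq (GRCh38.p14), with the words found in capitals.
DDIT4 (chr10:72273674-72273923, plus strand): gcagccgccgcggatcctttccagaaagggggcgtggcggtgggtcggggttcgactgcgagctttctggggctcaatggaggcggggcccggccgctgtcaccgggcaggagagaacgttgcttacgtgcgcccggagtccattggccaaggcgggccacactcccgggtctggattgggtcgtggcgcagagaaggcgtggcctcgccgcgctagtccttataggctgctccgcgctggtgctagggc
SESN2 (chr1:28259268-28259517, plus strand): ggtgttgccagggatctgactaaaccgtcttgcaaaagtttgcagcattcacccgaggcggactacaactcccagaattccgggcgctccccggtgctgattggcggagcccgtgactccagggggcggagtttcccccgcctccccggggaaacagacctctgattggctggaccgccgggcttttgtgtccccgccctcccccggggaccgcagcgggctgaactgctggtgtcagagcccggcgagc
TSC2 (chr16:2047735-2047984, plus strand): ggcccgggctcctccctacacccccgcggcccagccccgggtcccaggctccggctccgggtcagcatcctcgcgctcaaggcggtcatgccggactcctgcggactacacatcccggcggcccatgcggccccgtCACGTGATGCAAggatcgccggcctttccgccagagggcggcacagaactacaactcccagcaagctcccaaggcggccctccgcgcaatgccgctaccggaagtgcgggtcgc
RRAGB (chrX:55717499-55717748, plus strand): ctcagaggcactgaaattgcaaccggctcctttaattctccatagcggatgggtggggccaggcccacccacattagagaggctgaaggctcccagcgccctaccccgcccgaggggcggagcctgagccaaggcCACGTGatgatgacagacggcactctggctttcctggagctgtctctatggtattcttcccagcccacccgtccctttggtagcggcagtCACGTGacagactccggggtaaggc
RRAGC (chr1:38859773-38860022, minus strand): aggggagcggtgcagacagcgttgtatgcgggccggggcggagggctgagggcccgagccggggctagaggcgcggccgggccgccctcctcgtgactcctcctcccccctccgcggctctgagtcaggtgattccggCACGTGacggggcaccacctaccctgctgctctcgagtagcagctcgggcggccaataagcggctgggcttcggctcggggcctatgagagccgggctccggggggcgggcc
The words were CACGTG, an E-box such as factors of the MYC and TFE families bind, TGATGNAA, the core of elements that ATF4 can bind with C/EBP partners, and GTAAACA, a forkhead word. Both strands of the window from 250 bases before to 50 bases after each start were read. CACGTG was present in 10 of 54 windows of the 39 members with an entry (18.5%), against 7.26% of all 35116 windows. The 10 windows belonged to EIF4E, FNIP1, LAMTOR1, LAMTOR4, NPRL3, PRR5, RRAGB, RRAGC, TELO2 and TSC2, of which TELO2 and EIF4E fell with the drug in parental cells while TSC2, RRAGB and RRAGC rose. TGATGNAA was present in 2 member windows (3.7%), of TSC2 and PRR5L, against 3.62% of all. In TSC2 it ran from position -110 to -103 before the start and shared bases with the CACGTG at -114 to -109, which together read CACGTGATGCAA. In RRAGB the E-boxes began at -115 and -25 and, past the start, at 8; in RRAGC the word began at -112. GTAAACA was found in 0 member windows, against 3.42% of all. A match is a description of the letters only, and the windows of DDIT4 and SESN2 held none of these words.

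Library totals ran from 23849832 counts in OVCAR8 NR control replicate 2 to 48486296 counts in OVCAR8 parental neratinib replicate 2, and the 5637 libraries held 34854111 to 43279168 counts. The lines carried markers of their labels in part: in parental control libraries 5637 had KRT5 at 3948 CPM (the usual scaling of a count to its library total) and TP63 at 234 CPM with UPK1A and UPK3A near 0, and OVCAR8 had PAX8 at 145 CPM and MSLN at 313 CPM with MUC16, EMX2 and SOX17 near 0. MUC16, listed as an ovarian marker, stood at 278 CPM in 5637 parental controls. The leukocyte genes PTPRC and CD3E were at most 0.0165 CPM on average in the parental controls of either line. 1 library stood apart, OVCAR8 parental control replicate 2. Genes over 8 kb held 14.1% of its counts, while in the rest of the OVCAR8 libraries they held 20.4% to 21.2%. Among the members longer than 6 kb, 18 of 21 were lower in it than the mean of replicates 1 and 3 (median log2 difference -0.55), and all 5 members under 2 kb were higher (median 0.86). MTOR stood at 63.0 CPM in this library against 152 and 142 CPM, RICTOR at 6.67 against 28.9 and 27.1, and EIF4EBP1 at 393 against 223 and 212. It raised the biological coefficient of variation of the OVCAR8 fit from 4.37% to 13.0%. The library was kept. Counts of OVCAR8 members called are also given without it, and values of single members where leaving it out changed the call described or moved a called value by over 1.5 times.

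**Figure D1:**
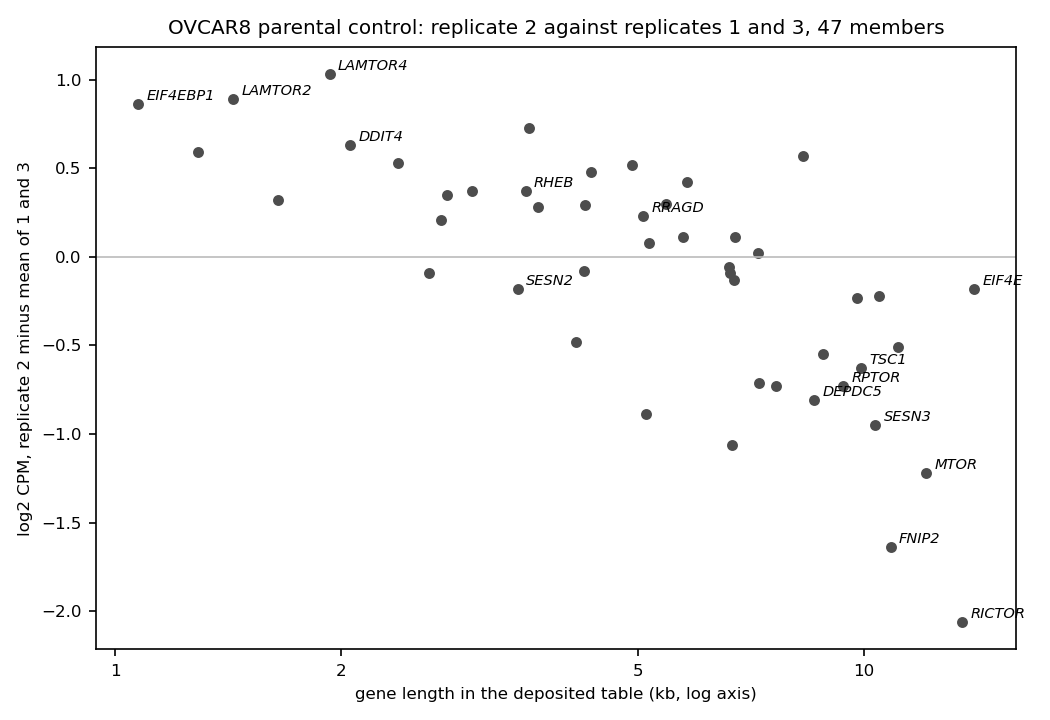
Each point is 1 of the 47 genes in OVCAR8 parental control cells, with gene length in kb on a log axis and, on the vertical axis, log2 CPM of replicate 2 minus the mean of replicates 1 and 3. Members longer than 6 kb lie mostly below 0 (18 of 21) and the 5 members under 2 kb all lie above 0.

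In untreated parental cells most members were well expressed, and the lines differed in which brakes and Rag proteins they carried. Compared per length, as FPKM (CPM per kb of gene), the highest members of 5637 were SEC13, a subunit of GATOR2 that also serves the nuclear pore and vesicle coats, at 141 ± 2.57 (SD, n = 3), and EIF4EBP1, which encodes the translation repressor 4E-BP1, at 74.7 ± 1.01. In OVCAR8 EIF4EBP1 led at 257 ± 94.7 FPKM, a spread set by replicate 2, and SEC13 stood at 35.4 ± 4.43. MTOR itself stood at 12.8 ± 0.102 FPKM in 5637 and 9.83 ± 4.03 in OVCAR8 (log2 difference -0.41, adjusted p = 0.022, or -0.13 without replicate 2). Of the 47 members, 23 were higher and 15 lower in OVCAR8 at an adjusted p under 0.05 (edgeR, all genes adjusted together), 80.9% against 72.0% of all genes tested (36.8% higher, 35.1% lower), and without replicate 2 the numbers were 23 and 18 (87.2%, against 72.8%).

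Of the members with the widest gaps between lines, 3 were near absent in 5637 and 1, DDIT4, was low in OVCAR8. RRAGD, a Rag GTPase, stood at 1.18 to 1.62 CPM in the parental controls of 5637 and at 32.3 to 39.0 CPM in OVCAR8 (log2 difference 4.67, SE 0.15, adjusted p = 4.0e-18). SESN3 stood at 0.0247 to 0.306 CPM (1 to 13 counts) in 5637 and at 6.73 to 13.4 CPM in OVCAR8. DEPTOR, an inhibitor that binds both mTOR complexes, had 4 or 5 counts in each 5637 control and 1.49 to 1.73 CPM in OVCAR8. DEPTOR and SESN3 did not pass the filter on low counts in 5637 and were tested only in OVCAR8 and between lines. They entered the test between lines through their OVCAR8 counts, and both are among the 23 members higher in OVCAR8. DDIT4 ran the other way, at 39.1 to 43.8 CPM in 5637 and 2.26 to 4.90 CPM in OVCAR8 (log2 difference -3.41, SE 0.20, adjusted p = 2.3e-13). In each of these 4 genes, picked for their wide gaps, the groups did not overlap, which held for 37 of the 47 members. The share over all genes was not computed here.

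**Figure D2:**
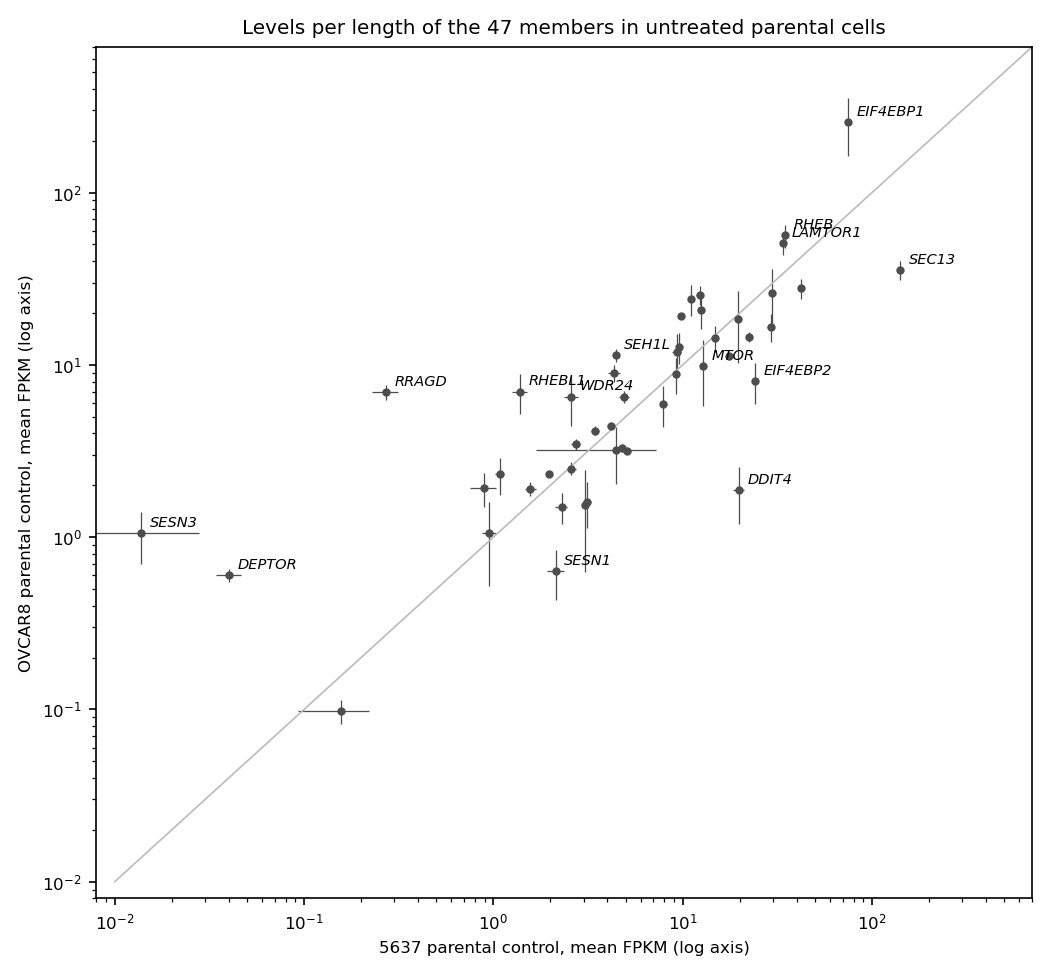
Mean FPKM of each of the 47 genes in parental control cells of 5637 (horizontal, log axis) and OVCAR8 (vertical, log axis), with bars of 1 SD over 3 libraries and a line of equal level; a bar that reaches 0 runs off the axis. RRAGD, SESN3 and DEPTOR lie above the line and DDIT4, SEC13 and SESN1 below it.

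Neratinib moved the members of parental cells in a mixed pattern. In 5637, 10 members rose and 13 fell of 45 tested (51.1%, against 47.3% of all genes, of which 23.9% rose and 23.5% fell), and the median log2 fold change of the members was -0.12, against 0.02 over all genes. In OVCAR8, 8 rose and 9 fell of 47 (36.2%, against 32.5% of all genes, 16.2% up and 16.3% down), and 10 rose and 14 fell without parental control replicate 2 (51.1%, against 49.2%). The shares called were thus near those of all genes. Scaling to library size alone moved the median of all genes from 0.02 to 0.13 in 5637 and from 0.01 to 0.11 in OVCAR8. The members then split as 13 up and 9 down in 5637 and 11 up and 7 down in OVCAR8. Over all genes that scaling gave 5763 up and 3212 down of 18307 in 5637, and 3639 up and 2175 down of 18072 in OVCAR8. DDIT4, SESN2, EIF4EBP1, FLCN, RRAGB, TSC1 and TSC2 rose in both lines, 70.0% of the rising members of 5637 and 87.5% of those of OVCAR8. EIF4E, RHEB, RPS6KB2, SEC13, SEH1L, TELO2 and TTI1 fell in both, 53.8% and 77.8% of the respective falling members, and 0 members were called in opposite directions. The same shares over all genes were not computed here, so whether this sharing is particular to the members was not tested. In all of these bulk measurements a change in RNA per cell and a change in the kinds of cell in the dish cannot be told apart.

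**Figure D3:**
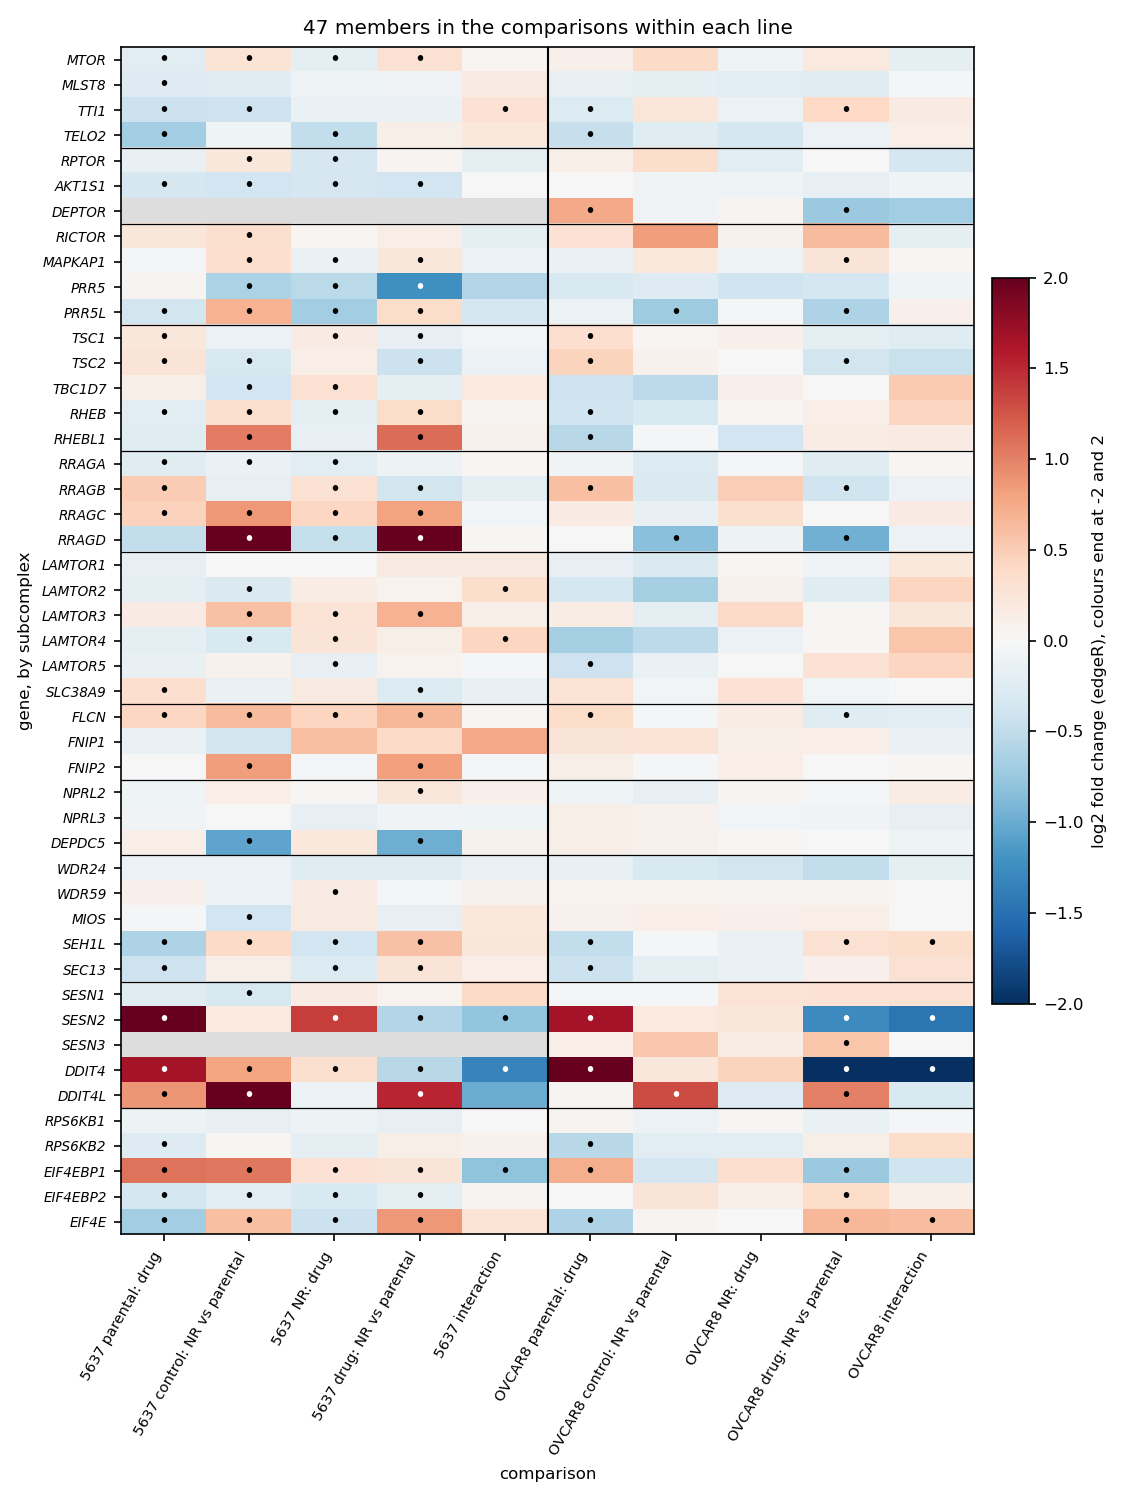
Log2 fold changes from edgeR for the 47 genes (rows, in blocks by subcomplex) in the 10 comparisons within each line (columns, 5637 left and OVCAR8 right); dots mark an adjusted p under 0.05, grey cells were not tested, and colours end at -2 and 2. The columns for drug against control in NR cells hold 26 dots in 5637 and 0 in OVCAR8.

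More members were called between resistant and parental controls in 5637 than in OVCAR8. Off the drug, 17 members were higher and 12 lower in 5637 NR (64.4%, against 56.5% of all genes, 28.4% higher and 28.0% lower), and 1 was higher and 2 lower in OVCAR8 NR (6.38%, against 9.84% of all genes, 4.94% higher and 4.91% lower), or 6 and 7 without parental control replicate 2 (27.7%, against 22.8%). Tested directly, the difference between NR and parental controls was not the same in the lines for 18 members (5 larger and 13 smaller in OVCAR8, 38.3%, against 32.9% of all genes, 14.8% and 18.1%), and 40.4% of members against 39.1% of all genes without that replicate. The drug effect in parental cells differed between lines for 1 member in each direction (4.26%, against 10.3% of all genes, 5.46% larger and 4.83% smaller in OVCAR8), or for 10.6% against 18.6% without it. On the drug, 16 members were higher and 10 lower in 5637 NR (57.8%, against 58.0% of all genes, 28.8% higher and 29.2% lower). In OVCAR8 NR 7 were higher and 9 lower (34.0%, against 31.0% of all genes, 14.6% higher and 16.4% lower). Library size scaling gave 5 and 11 in OVCAR8, and over all genes 2254 higher and 3287 lower of 18072. Leaving out replicate 2 of the parental controls gave 15 and 17 (68.1%, against 55.5%). Markers of cell type moved as well between these controls in 5637: of 9 urothelial markers 5 were lower and 1 higher in every NR than in every parental control library, and their summed level went from 4323 to 4438 CPM in parental to 796 to 836 CPM in NR controls, most of it KRT5 (means of 3948 and 547 CPM), with TP63 at 234 and 60.2 CPM. Of 7 Mullerian and ovarian markers 3 were higher, among them PAX8 (12.1 and 44.2 CPM) and WT1 (7.26 and 31.7 CPM). Another 3 were lower, among them MUC16 (278 and 83.0 CPM) and MSLN (3.90 and 0.260 CPM). The sum of the 7 went from 238 to 369 CPM in parental to 159 to 175 CPM in NR controls. MUC16 was its largest part in both. In OVCAR8 the urothelial sum was 24.8 to 27.3 CPM in parental and 29.6 to 32.5 CPM in NR controls, and the Mullerian and ovarian sum 424 to 535 and 290.3 to 331 CPM. SOX17 was at 0 in every 5637 control library. The part of these shifts in the results on NR cells was not tested. Comparisons that use the same libraries, such as the drug effect in parental cells and the NR difference off the drug, are not independent of each other.

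Within NR cells the drug still called 26 members in 5637 (11 rose, 15 fell, 57.8%, against 39.5% of all genes, 18.4% rising and 21.1% falling). The 6 libraries fitted alone gave 15. Library size scaling gave 15 rising and 7 falling members, and over all genes 5016 rising and 2428 falling of 18307. In OVCAR8 NR the drug called 0 of 47 (edgeR, against 1.39% of all genes, 0.642% rising and 0.747% falling). There 7 members had an unadjusted p under 0.05, and DESeq2 called 3. The shares of all genes for DESeq2 and for the 6 libraries alone are not given here. Without OVCAR8 parental control replicate 2, which enters this comparison only through the shared estimate of spread, 7 rose and 10 fell (36.2%, against 21.3%). The largest of these, RRAGB at 0.48, was less than 2-fold. The drug effect itself differed between NR and parental cells for 6 members in 5637 (3 in each direction, 13.3%, against 13.9% of all genes, 7.39% up and 6.48% down) and 4 in OVCAR8 (2 in each direction, 8.51%, against 8.83% of all genes, 4.62% up and 4.21% down), or 17 without that replicate (36.2%, against 32.8%).

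Among the stress brakes, DDIT4 gave the widest range of any member with the drug. DDIT4 (ENSG00000168209.4, hg19 chromosome 10, 74033678 to 74035794) stood at 39.1, 39.4 and 43.8 CPM in 5637 parental controls and at 149, 141 and 126 CPM with neratinib. In OVCAR8 parental cells it went from 2.26, 4.90 and 4.43 CPM to 49.6, 49.7 and 45.5 CPM. Treated and control groups did not overlap in either line, and the log2 fold changes were 1.66 (SE 0.12, adjusted p = 2.4e-08) in 5637 and 3.54 (SE 0.24, adjusted p = 1.8e-06) in OVCAR8, or 3.80 without OVCAR8 control replicate 2. The rise was larger in OVCAR8 by 1.88 (adjusted p = 2.5e-05), but from a low control level: treated OVCAR8 cells only slightly exceeded untreated 5637 cells in CPM.

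In NR cells the DDIT4 response was smaller in both lines. 5637 NR controls held 66.6, 70.6 and 76.8 CPM and drug-treated NR cells 111, 75.5 and 104 CPM, groups that overlapped. The log2 change was 0.32 (adjusted p = 0.042), and it lost its call with a replicate block, with the 6 libraries fitted alone and when any of 4 single libraries was left out (adjusted p up to 0.16). OVCAR8 NR cells held 4.71, 5.28 and 4.18 CPM without the drug and 7.38, 5.46 and 6.55 CPM with it (log2 change 0.44, adjusted p = 0.46, or 0.041 without parental control replicate 2). The difference in drug effect, NR minus parental, was -1.34 (SE 0.17, adjusted p = 5.4e-05) in 5637 and -3.10 (SE 0.33, adjusted p = 4.3e-04) in OVCAR8. Off the drug DDIT4 was higher in 5637 NR than in parental cells (log2 0.79, adjusted p = 3.4e-05), while in OVCAR8 the groups overlapped (log2 0.23, no call).

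SESN2, the sestrin that binds leucine and restrains GATOR2, had the largest rise of any member in 5637. SESN2 (ENSG00000130766.4, hg19 chromosome 1, 28586038 to 28609002) went from 16.0, 16.8 and 17.9 CPM to 84.3, 85.9 and 75.9 CPM in 5637 parental cells, and from 22.6, 20.7 and 24.1 CPM to 83.0, 77.8 and 69.3 CPM in OVCAR8 parental cells. The treated levels of the lines overlapped, and the log2 changes were 2.17 (SE 0.10, adjusted p = 1.2e-10) and 1.67 (SE 0.08, adjusted p = 2.3e-07), which differed by -0.51 (adjusted p = 0.015, or 0.064 without 5637 parental control replicate 1). In 5637 NR cells SESN2 still rose, from 19.9, 17.8 and 21.2 CPM to 60.1, 48.4 and 58.9 CPM (log2 1.38, SE 0.10, adjusted p = 1.9e-08). In OVCAR8 NR cells it stood at 25.4, 28.6 and 25.2 CPM without and 31.5, 30.5 and 31.1 CPM with the drug, a gap without overlap but not called (log2 0.22, adjusted p = 0.25, or 0.021 without parental control replicate 2). The drug effect was smaller in NR than in parental cells by 0.79 on the log2 scale in 5637 (difference -0.79, adjusted p = 8.1e-04) and by 1.46 in OVCAR8 (difference -1.46, adjusted p = 6.5e-05).

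The other sestrins were not called with the drug in parental cells. SESN1, a target of p53, gave log2 drug effects of -0.24 in 5637 and -0.03 in OVCAR8 parental cells, and its groups overlapped in both. SESN3, a FOXO target tested in OVCAR8 only, gave 0.14 there, and its control and treated groups overlapped. DDIT4L, a relative of DDIT4, was a low transcript with another pattern: it stood at 0.324, 0.690 and 0.400 CPM in 5637 parental controls and at 3.29, 2.50 and 2.50 CPM in NR controls (log2 2.53, SE 0.25, adjusted p = 3.9e-07). Treated cells held 0.703, 0.972 and 1.12 CPM in parental and 2.45, 2.65 and 3.29 CPM in NR cells. It was also higher in OVCAR8 NR controls than in OVCAR8 parental controls (0.699, 0.922 and 0.667 CPM against 0.264, 0.348 and 0.269 CPM, log2 1.31, adjusted p = 0.03), a call lost in 7 of the alternatives. With neratinib OVCAR8 cells held 0.339, 0.330 and 0.303 CPM as parental and 0.913, 0.376 and 0.639 CPM as NR cells. Its drug effect in 5637 parental cells (log2 0.88, adjusted p = 0.018) lost its call without any of 3 single libraries.

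**Figure D4:**
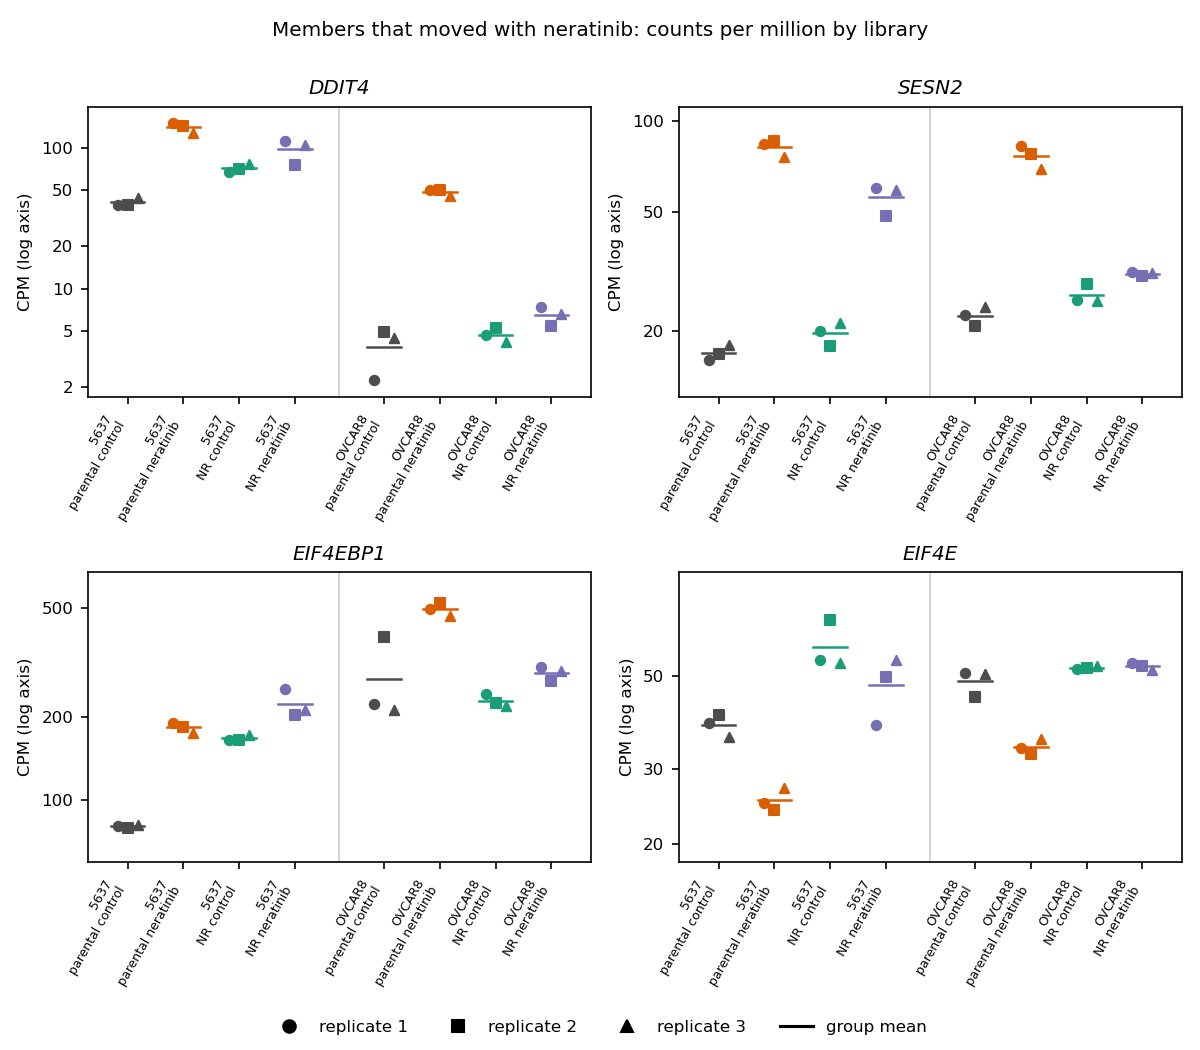
CPM on a log axis in every library (point shape by replicate) with the group mean as a bar, for DDIT4, SESN2, EIF4EBP1 and EIF4E in the 8 groups. DDIT4 and SESN2 rise with the drug in parental cells of both lines and sit close to their controls in OVCAR8 NR cells, while EIF4E falls with the drug in parental cells of both lines.

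The translation targets of mTORC1 split, with the repressor up and the cap-binding factor down in drug-treated parental cells. EIF4EBP1 (ENSG00000187840.4) rose in 5637 from 80.2, 79.0 and 81.2 CPM to 190.3, 185 and 176 CPM (log2 1.09, SE 0.08, adjusted p = 2.5e-08). In OVCAR8 it stood at 223, 393 and 212 CPM in controls and 498, 520.3 and 469 CPM with the drug (log2 0.72, SE 0.21, adjusted p = 0.022), and the change was 1.14 without replicate 2, the high control. EIF4E (ENSG00000151247.8), which binds the mRNA cap and is held by 4E-BP1, fell from 38.7, 40.4 and 35.9 CPM to 25.0, 24.1 and 27.1 CPM in 5637 (log2 -0.70, SE 0.11, adjusted p = 8.3e-05). It fell from 50.9, 44.6 and 50.5 CPM to 33.7, 32.7 and 35.5 CPM in OVCAR8 (log2 -0.62, SE 0.06, adjusted p = 2.8e-05). The groups of EIF4E and of EIF4EBP1 did not overlap in either parental line.

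In NR cells these genes differed by line. 5637 NR controls already held EIF4EBP1 at 165, 165 and 173 CPM, above parental controls (log2 1.05, adjusted p = 1.6e-08) and just under drug-treated parental cells. Drug-treated 5637 NR cells held 254, 203 and 213 CPM (log2 0.29, adjusted p = 0.0076), and the drug effect was smaller than in parental cells (difference -0.80, SE 0.11, adjusted p = 1.4e-04). OVCAR8 NR cells held 243, 226 and 219 CPM without and 306, 272 and 294 CPM with the drug. The difference in drug effect was -0.40 there, with no call (adjusted p = 0.47), and -0.82 without parental control replicate 2 (adjusted p = 1.2e-08). EIF4E stood at 52.0, 52.2 and 52.8 CPM in OVCAR8 NR controls and 53.7, 52.7 and 51.7 CPM with the drug, so that the fall seen in parental cells differed from NR cells by 0.61 (adjusted p = 0.0024). In 5637 NR cells it went from 54.5, 67.8 and 53.7 CPM to 38.3, 49.6 and 54.5 CPM, overlapping groups with a log2 change of -0.43 (adjusted p = 0.0045).

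The remaining targets moved less. RPS6KB1, which encodes S6 kinase 1, was called in 0 of the 10 comparisons within lines: its 5637 libraries ran from 55.7 to 78.6 CPM over all groups, and its OVCAR8 libraries from 84.3 to 106 CPM apart from 63.3 CPM in parental control replicate 2. In the 5637 parental cells it stood at 72.8, 73.9 and 66.8 CPM without and 68.6, 67.4 and 78.6 CPM with the drug, and in OVCAR8 parental cells at 106, 63.3 and 105 against 100.4, 96.2 and 104 CPM. Without that OVCAR8 replicate RPS6KB1 fell with the drug in parental cells (log2 -0.12, adjusted p = 0.029) and was lower in NR than in parental controls (log2 -0.28). RPS6KB2, its paralog, fell in both parental lines (log2 -0.26 in 5637 and -0.56 in OVCAR8, or -0.35 there without control replicate 2). EIF4EBP2, a second 4E-BP, fell with the drug in 5637 parental and NR cells (log2 -0.35 and -0.30), the opposite direction to EIF4EBP1.

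The mTOR core fell slightly with the drug in 5637. MTOR (ENSG00000198793.8, hg19 chromosome 1, 11166592 to 11322564) went from 156, 157 and 154 CPM to 145, 147 and 139 CPM (log2 -0.22, adjusted p = 0.0026), a change that was -0.11 and not called with library size scaling (adjusted p = 0.053). In 5637 NR cells it stood higher, at 192, 186 and 189.6 CPM without and 188, 178 and 179 CPM with the drug. In OVCAR8 it stood at 152, 63.0 and 142 CPM in parental controls, 134, 135 and 135 CPM with the drug, 158, 162 and 153 CPM in NR controls and 147, 148 and 154 CPM in treated NR cells. Without the low control replicate MTOR fell with the drug in OVCAR8 parental cells (log2 -0.18, adjusted p = 0.0011); with it there was no call.

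All 4 genes of the shared core fell in 5637 parental cells (23.5% of all genes fell), and 2 of 4 in OVCAR8 (16.3%), or 3 of 4 without control replicate 2. TELO2, which with TTI1 helps mTOR and related kinases fold, had the largest change there. It went from 55.0, 50.4 and 51.5 CPM to 38.8, 35.0 and 30.6 CPM in 5637 (log2 -0.69, adjusted p = 7.7e-04) and from 103, 123 and 97.7 CPM to 83.2, 91.5 and 78.6 CPM in OVCAR8 (log2 -0.46, adjusted p = 0.013, or -0.30 without control replicate 2). In NR cells TELO2 stood at 44.7, 48.7 and 55.7 CPM without and 46.6, 29.1 and 40.1 CPM with the drug in 5637, and at 103, 91.3 and 89.1 against 77.6, 68.7 and 80.7 CPM in OVCAR8. TTI1 fell in both parental lines (log2 -0.43 and -0.28, with overlapping groups in OVCAR8), and MLST8, the small subunit of both complexes, fell in 5637 parental cells (log2 -0.26, adjusted p = 0.049, or 0.21 with library size scaling).

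RPTOR, the scaffold of mTORC1, was not called with the drug in parental cells of either line. It stood at 76.7, 75.4 and 70.9 CPM in 5637 parental controls and 75.3, 72.4 and 68.8 CPM with the drug. In 5637 NR cells it went from 82.8, 87.7 and 93.6 CPM to 87.6, 64.8 and 77.3 CPM, overlapping groups (log2 -0.33, adjusted p = 0.012) whose call was lost in 4 alternatives. OVCAR8 cells held RPTOR at 64.1, 38.6 and 64.2 CPM in parental controls and 64.3, 64.7 and 64.0 CPM with the drug, and at 75.8, 74.1 and 67.7 against 63.1, 59.2 and 67.4 CPM in NR cells, with no call. Without parental control replicate 2 RPTOR fell with the drug in OVCAR8 NR cells (log2 -0.22, adjusted p = 0.0028) and was higher in NR than in parental controls (log2 0.18, adjusted p = 0.026). DEPTOR rose with the drug in OVCAR8 parental cells, from 1.73, 1.51 and 1.49 CPM to 2.63, 3.18 and 2.68 CPM (log2 0.75, SE 0.15, adjusted p = 0.0028). In OVCAR8 NR cells DEPTOR stood at 1.47, 1.55 and 1.64 CPM without and 1.93, 1.61 and 1.39 CPM with the drug, and treated NR cells were lower than treated parental cells (log2 -0.75, adjusted p = 0.0025). In 5637 DEPTOR did not exceed 0.216 CPM in any library. AKT1S1, the mTORC1 inhibitor PRAS40, was lower by 0.34 to 0.39 on the log2 scale in 4 comparisons of 5637, with adjusted p between 6.3e-04 and 0.0034, and was called in 0 of those of OVCAR8. Without OVCAR8 parental control replicate 2 it was lower in treated NR than in treated parental cells of that line (log2 -0.17, adjusted p = 0.0044), and the drug effects differed by -0.19 (adjusted p = 0.047).

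Of the 4 mTORC2 genes, 3 were higher and 1 lower in 5637 NR controls (28.4% of all genes were higher and 28.0% lower). With the drug 3 fell in 5637 NR cells (21.1% of all genes fell), of which PRR5 and MAPKAP1 had overlapping groups. RICTOR was higher in 5637 NR controls, at 56.5, 56.5 and 43.3 CPM, than in parental controls, at 42.2, 42.0 and 39.7 CPM (log2 0.32, adjusted p = 0.029), a call lost when any of 5 single libraries was left out. On the drug it stood at 47.5, 47.6 and 60.4 CPM in parental and 48.0, 62.3 and 64.9 CPM in NR cells. In OVCAR8 parental cells RICTOR stood at 28.9, 6.67 and 27.1 CPM without and 26.7, 25.8 and 27.7 CPM with the drug, and in NR cells at 36.1, 35.8 and 41.0 against 40.3, 44.8 and 36.2 CPM. The OVCAR8 NR difference was not called (log2 0.83, adjusted p = 0.15), but with the low library left out NR cells were higher off the drug by 0.43 (adjusted p = 2.1e-04) and on it by 0.62 (adjusted p = 5.3e-08). RICTOR overlaps OSMR in the annotation, and strand use in counting is not given in the sources used here.

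PRR5 and PRR5L, a pair of related mTORC2 subunits, differed in opposite directions between 5637 NR and parental controls. PRR5 fell from 4.38, 3.72 and 5.11 CPM in parental to 2.44, 2.75 and 3.35 CPM in NR controls (log2 -0.64, adjusted p = 0.0079). In treated cells it stood at 5.46, 4.61 and 4.65 CPM in parental and 2.75, 1.64 and 1.99 CPM in NR cells (log2 -1.22, SE 0.19, adjusted p = 4.5e-05). PRR5L rose from 12.9 to 13.1 CPM in parental controls to 18.4 to 23.1 CPM in NR controls (log2 0.69, adjusted p = 3.8e-05). With the drug PRR5L fell in 5637 NR cells to 13.6 to 15.2 CPM (log2 -0.70, adjusted p = 7.3e-05), and in parental cells to 9.32 to 11.9 CPM (log2 -0.37, adjusted p = 0.01). In OVCAR8 PRR5L was lower in NR controls, at 9.07, 9.35 and 10.5 CPM against 15.5, 14.7 and 15.7 CPM (log2 -0.71, adjusted p = 1.6e-04), and the NR difference was not the same in the lines (difference -1.42, adjusted p = 2.7e-08). OVCAR8 PRR5 stood at 8.26, 11.9 and 8.30 CPM in parental controls, 8.05, 9.18 and 7.52 CPM with the drug, 9.19, 7.63 and 7.80 CPM in NR controls and 6.23, 5.97 and 6.74 CPM in treated NR cells, with no call. Without parental control replicate 2 it fell with the drug in NR cells (log2 -0.41, adjusted p = 0.0041) and was lower in treated NR than in treated parental cells (log2 -0.36, adjusted p = 0.0027). PRR5 overlaps ARHGAP8, so its counts are uncertain.

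The TSC brake rose a little with the drug in parental cells. TSC1 went from 86.6, 93.2 and 93.1 CPM to 115, 115 and 116 CPM in 5637 (log2 0.23, adjusted p = 0.0017) and from 101, 64.3 and 97.4 CPM to 115, 121 and 118 CPM in OVCAR8 (log2 0.34, adjusted p = 0.03), where the log2 change was 0.20 without replicate 2 (adjusted p = 5.7e-04) and the call was lost when any of the 3 treated libraries was left out. TSC2, whose GTPase-activating domain acts on RHEB, went from 103, 105 and 109 CPM to 137, 143 and 126 CPM in 5637 (log2 0.25, adjusted p = 0.03) and from 166, 109.9 and 148 CPM to 207, 204 and 199.9 CPM in OVCAR8 (log2 0.44, adjusted p = 0.0046). Treated and control groups did not overlap for either gene in either line, although the TSC2 call in 5637 was lost when any of 5 single libraries was left out.

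In NR cells TSC1 stood at 88.1, 84.2 and 83.3 CPM without and 105, 108 and 101 CPM with the drug in 5637, and at 90.4, 93.2 and 93.8 against 96.8, 102 and 102 CPM in OVCAR8. TSC2 stood at 84.1, 80.6 and 92.0 CPM without and 114, 88.4 and 105 CPM with the drug in 5637 NR, and at 158, 156 and 148 against 155, 147 and 163 CPM in OVCAR8 NR. TSC2 was lower in drug-treated NR than in drug-treated parental cells of both lines (log2 -0.43, adjusted p = 5.6e-04, and -0.36, adjusted p = 0.014). TSC2 overlaps PKD1 and NTHL1.

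RHEB, the GTPase that TSC restrains and that activates mTORC1, ran opposite to TSC in parental cells. It went from 128, 119 and 121 CPM to 117, 109 and 111 CPM in 5637 (log2 -0.23, adjusted p = 0.0057, not called with library size scaling, adjusted p = 0.13) and from 179, 235 and 185 CPM to 165, 162 and 162 CPM in OVCAR8 (log2 -0.40, adjusted p = 0.021, or -0.21 without replicate 2). 5637 NR cells held more RHEB, at 152, 164 and 147 CPM without and 135, 156 and 157 CPM with the drug, while OVCAR8 NR cells held 168 CPM in each control library and 177, 172 and 171 CPM with the drug. RHEBL1, its less abundant relative, was higher in 5637 NR controls at 3.63, 3.87 and 3.52 CPM than in parental controls at 1.94, 1.78 and 1.62 CPM (log2 1.03, SE 0.19, adjusted p = 3.0e-04). With the drug it stood at 1.13, 2.24 and 1.45 CPM in parental and 3.93, 3.06 and 3.74 CPM in NR cells. In OVCAR8 RHEBL1 stood at 6.96, 11.6 and 8.54 CPM in parental controls, 6.44, 6.37 and 6.94 CPM with the drug, 8.58, 8.97 and 10.2 CPM in NR controls and 7.47, 6.94 and 7.01 CPM in treated NR cells. The fall of RHEBL1 in OVCAR8 parental cells was -0.56 (adjusted p = 0.032), or -0.28 without control replicate 2, and without that library a fall was also called in NR cells (log2 -0.40, adjusted p = 0.0043).

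The Rag GTPases, which act as pairs of RRAGA or RRAGB with RRAGC or RRAGD, did not move as a unit. RRAGD (ENSG00000025039.10, hg19 chromosome 6, 90074355 to 90121989) had the largest NR difference of any member in 5637: 1.62, 1.18 and 1.34 CPM in parental controls and 8.99, 8.32 and 8.07 CPM in NR controls (log2 2.60, SE 0.17, adjusted p = 3.9e-09). With the drug it stood at 1.22, 0.648 and 1.28 CPM in parental and 5.87, 6.77 and 7.38 CPM in NR cells (log2 2.63, adjusted p = 6.9e-09). In OVCAR8 the direction was the reverse. Controls went from 32.3, 39.0 and 34.4 CPM in parental to 20.2, 19.4 and 21.4 CPM in NR cells (log2 -0.84, SE 0.10, adjusted p = 2.9e-04), and treated cells from 38.2, 36.6 and 39.5 CPM to 19.0, 19.6 and 18.8 CPM (log2 -0.96, adjusted p = 3.6e-05). The lines differed in this NR effect by -3.46 (SE 0.20, adjusted p = 3.1e-12), yet OVCAR8 NR cells still held more RRAGD than 5637 NR cells.

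RRAGC was also higher in 5637 NR, at 40.1, 43.0 and 34.9 CPM against 22.5, 20.8 and 21.1 CPM in parental controls (log2 0.86, SE 0.11, adjusted p = 1.1e-05). It rose with the drug in 5637 parental cells to 32.1, 30.2 and 33.1 CPM and in NR cells to 44.1, 59.1 and 68.4 CPM. In OVCAR8 it stood at 22.1, 23.6 and 22.6 CPM in parental and 20.3, 21.7 and 21.9 CPM in NR controls, with no call, and the lines differed in the NR effect by -1.02 (adjusted p = 1.4e-05). With the drug OVCAR8 held 27.6, 26.3 and 28.2 CPM in parental cells (log2 0.16, no call, or 0.24 without control replicate 2, adjusted p = 0.0045) and 28.9, 26.1 and 25.8 CPM in NR cells. RRAGB followed the drug in both parental lines, from 7.19, 6.61 and 7.32 CPM to 10.7, 10.6 and 11.2 CPM in 5637 (log2 0.51, adjusted p = 1.2e-04) and from 6.53, 7.48 and 6.39 CPM to 10.8, 10.9 and 11.5 CPM in OVCAR8 (log2 0.60, adjusted p = 0.0020). RRAGA, the more abundant partner of that pair, fell with the drug in 5637 parental cells (log2 -0.25) and gave -0.07 in OVCAR8, with no call. In these lines the drug comparison thus called RRAGB up and never called RRAGA up.

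**Figure D5:**
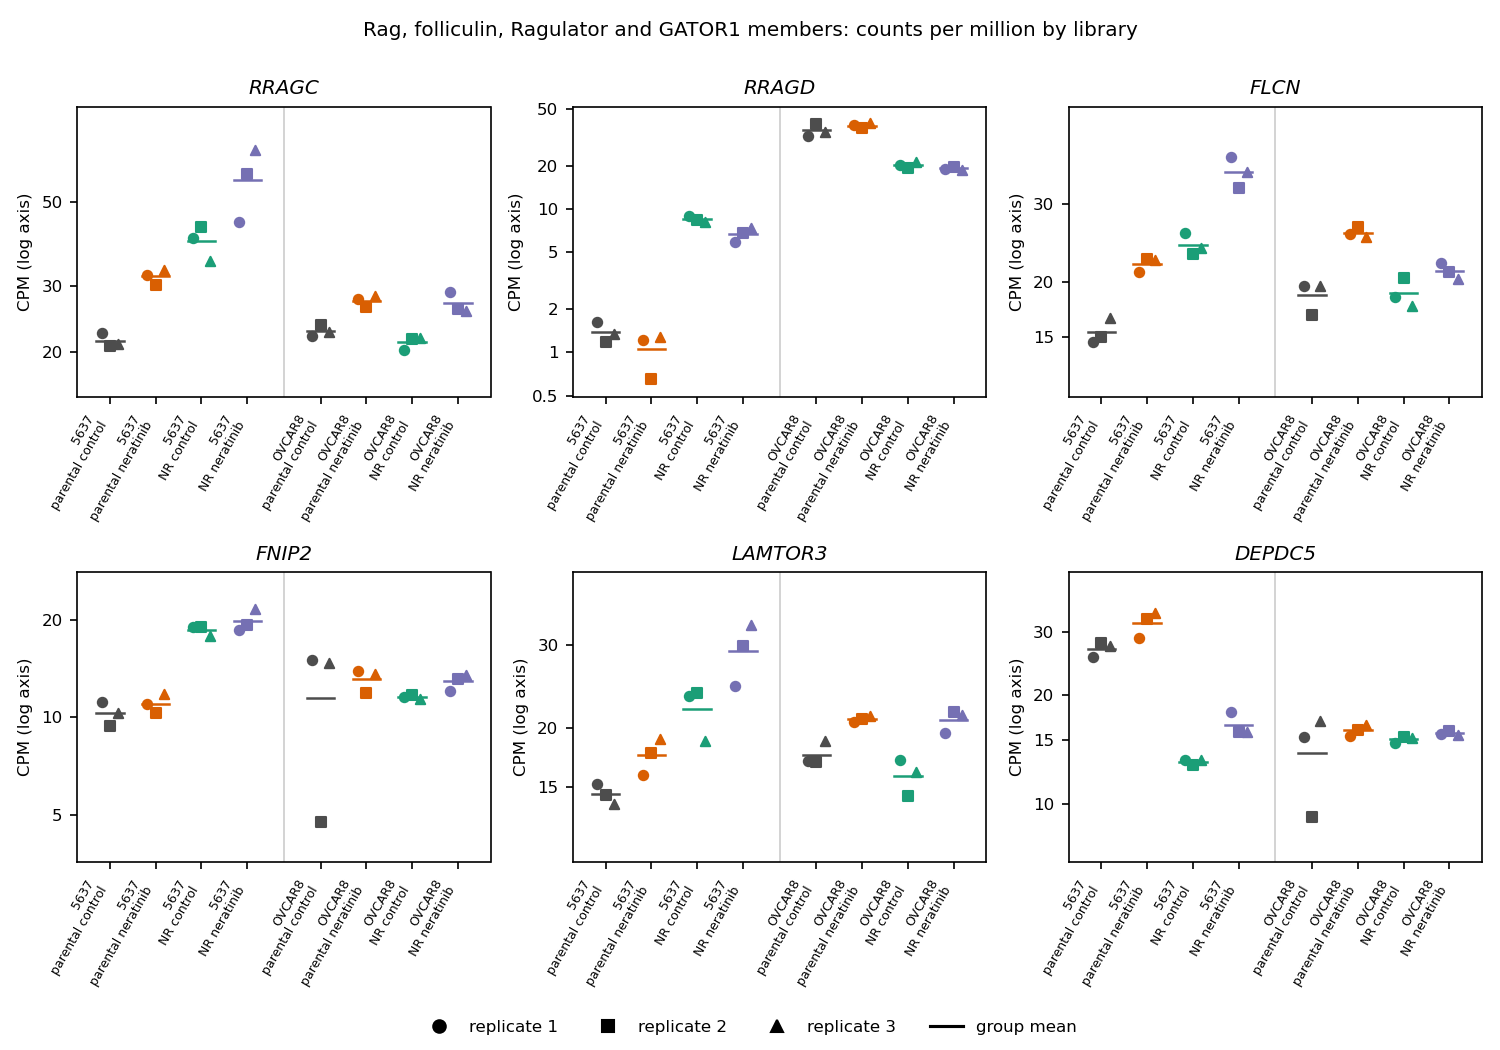
CPM on a log axis in every library (point shape by replicate) with the group mean as a bar, for RRAGC, RRAGD, FLCN, FNIP2, LAMTOR3 and DEPDC5 in the 8 groups. In 5637 the NR libraries of the first 5 genes lie above the parental controls and those of DEPDC5 below them, and in OVCAR8 RRAGD lies lower in NR libraries.

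Folliculin (FLCN), which with FNIP1 or FNIP2 acts on RRAGC and RRAGD, moved with both drug and resistance in 5637. FLCN went from 14.6, 15.0 and 16.6 CPM to 21.1, 22.5 and 22.4 CPM in parental cells (log2 0.41, adjusted p = 7.7e-04) and from 25.8, 23.1 and 23.9 CPM to 38.3, 32.7 and 35.5 CPM in NR cells (log2 0.43, adjusted p = 5.5e-04), and NR controls exceeded parental controls by 0.64 (adjusted p = 6.8e-06). In OVCAR8 parental cells it went from 19.6, 16.8 and 19.6 CPM to 25.7, 26.6 and 25.3 CPM (log2 0.37, adjusted p = 0.0031). FNIP2 was higher in 5637 NR cells and was not called with the drug there. It went from 11.2, 9.42 and 10.3 CPM in parental to 19.0, 19.1 and 17.9 CPM in NR controls (log2 0.84, SE 0.09, adjusted p = 6.1e-07), with 11.0, 10.3 and 11.8 against 18.6, 19.4 and 21.7 CPM on the drug. In OVCAR8 FNIP2 stood at 15.1, 4.75 and 14.7 CPM in parental controls, 13.9, 11.9 and 13.6 CPM with the drug, 11.6, 11.7 and 11.4 CPM in NR controls and 12.1, 13.2 and 13.5 CPM in treated NR cells. Without replicate 2 it was lower in treated than in control parental cells (log2 -0.23, adjusted p = 0.020) and lower in NR than in parental controls (log2 -0.36, adjusted p = 0.0025). FNIP1 is hard to read in 5637, where parental control replicate 3 held 51.2 CPM against 18.6 and 19.5 CPM: the drug effect was -0.14 with no call, and 0.50 (adjusted p = 0.0036) without that library. FLCN overlaps MPRIP.

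Of the Ragulator, the scaffold that holds the Rag proteins on the lysosome, only LAMTOR3 rose in 5637 NR controls, while LAMTOR2 and LAMTOR4 fell (log2 -0.29 and -0.31). LAMTOR3 went from 15.2, 14.4 and 13.8 CPM to 23.4, 23.8 and 18.8 CPM (log2 0.58, SE 0.11, adjusted p = 2.4e-04). With the drug it stood at 15.9, 17.7 and 19.0 CPM in parental and 24.6, 29.9 and 33.1 CPM in NR cells (log2 0.70, adjusted p = 3.9e-05). In OVCAR8 LAMTOR3 stood at 17.0, 16.9 and 18.8 CPM in parental controls, 20.6, 20.9 and 21.2 CPM with the drug, 17.1, 14.3 and 16.1 CPM in NR controls and 19.5, 21.6 and 21.3 CPM in treated NR cells. The drug effect in OVCAR8 NR cells was 0.38 (adjusted p = 0.058), or 0.36 (adjusted p = 6.1e-04) without parental control replicate 2, and the NR effect differed between lines by -0.79 (adjusted p = 1.3e-04). LAMTOR1 was called in 0 comparisons within lines. SLC38A9, the arginine sensor of the lysosome, rose with the drug in 5637 parental cells (log2 0.33, adjusted p = 0.026).

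In GATOR1, which switches the Rag proteins off, the largest change lay in DEPDC5. DEPDC5 (ENSG00000100150.12, hg19 chromosome 22, 32149944 to 32303012) fell from 25.5, 27.9 and 27.3 CPM in 5637 parental to 13.2, 12.8 and 13.2 CPM in NR controls (log2 -1.06, SE 0.08, adjusted p = 3.3e-08). With the drug it stood at 28.8, 32.6 and 33.8 CPM in parental and 17.9, 15.8 and 15.8 CPM in NR cells (log2 -0.98, adjusted p = 7.0e-08). Its partners NPRL2 and NPRL3 gave 0.13 and 0.01 off the drug, with no call. In OVCAR8 DEPDC5 stood at 15.3, 9.16 and 16.9 CPM in parental controls, 15.4, 16.0 and 16.5 CPM with the drug, 14.7, 15.3 and 15.2 CPM in NR controls and 15.6, 15.9 and 15.5 CPM in treated NR cells, and the NR effect differed between lines by 1.13 (SE 0.17, adjusted p = 1.6e-05). The level of 5637 NR cells was therefore close to that of OVCAR8 and the level of 5637 parental cells above it.

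In GATOR2, which restrains GATOR1, the subunits shared with the nuclear pore fell with the drug in both parental lines. The other subunits, WDR24, WDR59 and MIOS, were not called in either. SEH1L went from 46.8, 46.4 and 46.0 CPM to 32.3, 31.2 and 34.9 CPM in 5637 parental cells (log2 -0.61, SE 0.06, adjusted p = 9.2e-07) and from 128, 108 and 123 CPM to 91.3, 93.0 and 89.7 CPM in OVCAR8 (log2 -0.49, SE 0.06, adjusted p = 1.6e-04). SEC13 fell too (log2 -0.42 in 5637 and -0.43 in OVCAR8, or -0.26 there without control replicate 2). In NR cells SEH1L stood at 61.7, 63.0 and 58.3 CPM without and 47.5, 53.7 and 51.1 CPM with the drug in 5637 (log2 -0.39, adjusted p = 1.0e-04), and at 125, 114 and 121 against 109, 114 and 108 CPM in OVCAR8, where the groups met (log2 -0.14, no call, or -0.15, adjusted p = 0.01, without parental control replicate 2). The smaller fall in OVCAR8 NR cells (difference 0.35, adjusted p = 0.033) lost its call with the replicate block (adjusted p = 0.063) and in most other alternatives, but was 0.36 with an adjusted p of 6.1e-05 without parental control replicate 2.

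Other genes of the pathway, a list of 55 genes around the members, gave 12 rises and 17 falls of 54 tested in 5637 parental cells with the drug (53.7%) and 7 and 11 in OVCAR8 (33.3%), against 47.3% and 32.5% of all genes. Off the drug 16 were higher and 23 lower in 5637 NR (72.2%, against 56.5%) and 3 higher and 2 lower in OVCAR8 NR (9.26%, against 9.84%). Without OVCAR8 parental control replicate 2 the drug called 10 up and 22 down in OVCAR8 parental cells (59.3%, against 49.2%), and 10 were higher and 9 lower in OVCAR8 NR controls (35.2%, against 22.8%). All 4 assembly factors (TTI2, RUVBL1, RUVBL2 and PIH1D1) fell in drug-treated 5637 parental cells (23.5% of all genes fell). In OVCAR8 parental cells 3 of 4 fell (16.3% of all genes), or 4 of 4 without control replicate 2 (4611 of 18537 genes). TFEB, the lysosomal transcription factor that RRAGC, RRAGD and FLCN govern through mTORC1, rose in 5637 parental cells from 4.83 to 4.90 CPM in controls to 9.30 to 12.3 CPM (log2 1.08, adjusted p = 7.6e-06) and stood at 3.31 to 4.04 CPM in treated NR cells, a drug effect smaller by 1.44 on the log2 scale (difference -1.44, adjusted p = 1.4e-04). ULK1, the autophagy kinase that mTORC1 inhibits, was lower in treated NR than in treated parental 5637 cells (49.9 to 73.3 against 142 to 165 CPM, log2 -1.39).

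SGK1, an mTORC2 substrate, was higher in NR controls of both lines, at 80.3 to 84.8 against 33.9 to 36.2 CPM in 5637 (log2 1.21, adjusted p = 1.7e-10) and 34.8 to 38.2 against 12.1 to 15.0 CPM in OVCAR8 (log2 1.38, adjusted p = 3.2e-06). It fell with the drug in 5637 parental and NR cells (log2 -1.21 and -1.63). With the drug SGK1 stood at 8.97 to 10.7 CPM in OVCAR8 parental cells and at 26.6 to 32.4 CPM in OVCAR8 NR cells, below the controls in both. PIK3CD, a catalytic PI3K subunit, was higher in 5637 NR controls (107 to 113 against 26.9 to 28.6 CPM, log2 1.96). PIK3R3, a regulatory subunit, fell with the drug in 5637 parental and NR cells (log2 -1.02 and -1.28). In OVCAR8 parental cells PIK3R3 stood at 7.39 to 9.84 CPM without and 4.35 to 5.25 CPM with the drug. In OVCAR8 NR cells it stood at 7.67 to 8.44 against 7.55 to 8.09 CPM. GRB10, an adaptor that mTORC1 stabilises, was lower in 5637 NR controls (log2 -1.10) and rose with the drug in OVCAR8 parental cells from a low level (log2 1.47). Further changes of at least 2-fold included PRKAA2, lower in 5637 NR controls (at most 0.115 CPM against 0.448 to 0.641 CPM). In treated 5637 cells PRKAA2 stood at 0.0231 to 0.0531 CPM in NR and 0.420 to 0.811 CPM in parental cells. Treated OVCAR8 NR cells held GRB10 at 2.87 to 3.05 CPM, against 6.33 to 7.26 CPM in treated parental cells. In the same comparison PRKAA1 was higher (log2 1.07) and CASTOR1 lower (log2 -1.30) in NR cells. CASTOR1 was near the floor, with 9, 8 and 8 counts in treated NR and 19, 30 and 16 in treated parental libraries. EIF4EBP3, at most 1.15 CPM in any library, changed by at least 2-fold in 3 comparisons of 5637.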

How the data were processed

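RNA of the 24 libraries was sequenced in pairs from stranded mRNA libraries, per the labels' protocols. The authors deposited 1 table of raw counts per gene; STAR 2.5.3a, featureCounts 1.15.2 and hg19 are named in the submitters' processing notes, and the strand setting of the counting is not given in the sources used here. Members were matched by symbol (47 of 47), and CASTOR2 of the wider list is not analysed here. Counts were fitted with edgeR 4.0.16 (quasi-likelihood F-test, TMM scaling, filterByExpr), each line alone with its 12 libraries (18307 genes tested in 5637 and 18072 in OVCAR8) and all 24 together between lines (20250 genes). Adjusted p-values are Benjamini-Hochberg values over every gene of the fit, called under 0.05. CPM is over the library total, and FPKM uses the deposited gene length. The script was tested on simulated data. The members and lists were chosen with earlier results of these data known.

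By rule, values in every library were given for 20 members: MTOR, RPTOR, RICTOR, TSC1, TSC2, RHEB, RPS6KB1, EIF4EBP1, DDIT4 and SESN2, each member with an adjusted p under 0.05, an absolute log2 change of at least 1 and a mean of at least 1 CPM in its line, and, in a subcomplex with none, its called member with the largest change. Genes of the wider list were named at an absolute log2 change of at least 1. Other members, among them RRAGB, RRAGC, FLCN, EIF4E, FNIP1 and PRR5L, were described after their values were seen. Alternatives were DESeq2 1.42.0, its size factors in edgeR, library size only, no filter, 1 CPM in 3 libraries, a replicate block, the compared groups alone and each library left out. OVCAR8 parental control replicate 2 was also left out of OVCAR8 comparisons it is not part of, an alternative chosen after seeing the data. 13 members overlap another gene with at least 100 counts on average. No 2 libraries agreed within sampling noise.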

Additional observations from a re-analysis of the deposited data

Results flagged for a closer look

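The drug effect differed between NR and parental cells, by the interaction term of the edgeR fit, for 6 members in 5637 (13.3%, against 13.9% of all genes). In OVCAR8 it differed for 4 (8.51%, against 8.83%), with as many up as down in each line. Only the members named by rule are listed here, and these had also been called with the drug in parental cells. In 5637 the difference was -1.34 for DDIT4, -0.80 for EIF4EBP1 and -0.79 for SESN2 on the log2 scale. In OVCAR8 it was -3.10 for DDIT4, -1.46 for SESN2 and 0.35 for SEH1L.

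Between the lines, OVCAR8 minus 5637, the drug effect in parental cells differed by 1.88 for DDIT4 and by -0.51 for SESN2. The NR effect in control cells differed for 10 of the 20 members named by rule. Part of those 20 were named for large changes within lines, so this count is not a share to set against all genes. Over all 47 members 18 differed (38.3%, against 32.9% of all genes). It was smaller in OVCAR8, or of opposite sign, for RRAGD (-3.46, adjusted p = 3.1e-12), EIF4EBP1 (-1.40, adjusted p = 5.3e-05), DDIT4L (-1.24, adjusted p = 0.036), RHEBL1 (-1.07, adjusted p = 0.0038), FNIP2 (-0.88, adjusted p = 0.023), LAMTOR3 (-0.79, adjusted p = 1.3e-04), RHEB (-0.64, adjusted p = 6.9e-04) and SEH1L (-0.44, adjusted p = 4.0e-04). It was greater in value for DEPDC5 (1.13, adjusted p = 1.6e-05) and TSC2 (0.39, adjusted p = 0.036). All p-values are from edgeR.

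The FNIP2, DDIT4L and TSC2 differences between lines lost their calls in 6, 8 and 7 alternatives. Without OVCAR8 parental control replicate 2 they were -1.08 for DDIT4L (adjusted p = 0.096) and 0.28 for TSC2 (adjusted p = 0.055).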

How the results depend on the processing

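Counts of members called moved by more than 1.5 times in these settings. Calls over all genes also move with the setting, so these counts do not describe the members alone. Without OVCAR8 parental control replicate 2 the share of all genes called went from 1.39% to 21.3% for the drug in OVCAR8 NR. It went from 31.0% to 55.5% between NR and parental OVCAR8 cells on the drug. Shares of all genes under the settings below are not given here. With only the compared groups fitted, 15 members were called for the drug in 5637 NR (26 in the full fit), 7 for the drug in OVCAR8 parental cells (17), 17 for the drug in OVCAR8 NR (0) and 32 between NR and parental OVCAR8 cells on the drug (16). For OVCAR8 NR minus parental controls, 6 were called with DESeq2 and 7 with no filter (3). For the drug in OVCAR8 NR, 3 were called with DESeq2, 3 with library size only and 1 with the filter of 1 CPM in 3 libraries.

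Leaving out 1 library at a time gave, in 5637, 18 to 21 calls for the drug in parental cells, 25 to 28 for NR minus parental controls, 18 to 26 for the drug in NR, 23 to 30 for NR minus parental on the drug and 4 to 9 for the difference in drug effect. In OVCAR8 the ranges were 11 to 24, 2 to 13, 0 to 17, 9 to 32 and 3 to 17, each upper end of the OVCAR8 ranges coming from leaving out parental control replicate 2. Between lines they were 35 to 41 for controls, 1 to 5 for the drug effect and 14 to 20 for the NR effect. Called values of opposite sign came, among the settings tried, without that replicate. Over the libraries left out, the drug effect in OVCAR8 parental cells ran from -0.23 to 0.33 for FNIP2, -0.18 to 0.29 for MTOR and -0.12 to 0.15 for RPS6KB1, and the line difference in the NR effect from -0.19 to 0.28 for MTOR.

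Same-numbered libraries did not deviate together (correlations -0.127 to 0.0986 in 5637 and -0.0925 to 0.0854 in OVCAR8), so they share only a number. With a replicate block the calls in 5637 were 22, 27, 20, 25 and 4, in OVCAR8 16, 2, 0, 15 and 3, and between lines 35, 2 and 16, in the order above. Of the values under an alternative for the 20 members named by rule, 152 lost and 79 gained a call with direction kept. Another 4 changed direction, with a call in the main fit, the alternative or both.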
